A study of Mus musculus with 14 samples.

Results

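The genes described are 10 genes of the forebrain interneuron lineage, taken by name from the deposited gene table. All 10 were present among its 17927 genes. They are the transcription factors Dlx1, Dlx2, Dlx5, Dlx6, Nkx2-1 and Lhx6, the neuropeptides Sst and Npy, the calcium-binding protein Calb2 and the receptor Erbb4. They were measured by RNA-SEQ of brain at postnatal day 2 (P2) in 7 wild-type (WT) and 7 Capn15 knockout (KO) mice, 1 library per brain. Capn15 encodes calpain 15, a protease, and the comparison asks which mRNAs change when it is lost. The mouse lines were made on C57BL/6J, and the animals were untreated. The sources used here do not say which Capn15 allele the KO brains carried.

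The 14 brains came from 6 litters, named A to F in the column headers of the count table. Litter B gave 4 brains, with 2 of each genotype, and each of the other 5 litters gave 1 WT and 1 KO brain. The headers also give sex. There were 2 female and 5 male WT brains and 4 female and 3 male KO brains. In litter B both WT brains were male and both KO brains female, and only litter F held a WT and a KO brain of the same sex.

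Cortical and striatal interneurons are inhibitory neurons that use GABA. They are born in the ganglionic eminences, folds of the ventral forebrain, and reach the cortex by tangential migration. Dlx homeodomain factors act throughout the eminences, Nkx2-1 specifies the medial eminence and the preoptic area, and Lhx6 acts downstream of Nkx2-1 in cells that later make somatostatin or parvalbumin. Calb2 marks many neurons of the caudal eminence, and Erbb4 is the neuregulin receptor that migrating interneurons carry. Most of these genes are also used outside the interneuron lineage: Calb2 and Npy in other neurons, and Nkx2-1 and Sst in the hypothalamus.

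The libraries held between 37620954 and 70910163 counts, so that the smallest count of any of the 10 genes, 45 for Nkx2-1, was above the limit of 3 counts that a count of 0 allows. The labels call the cell type neurons, but the samples are whole brain: markers of astrocytes, oligodendrocytes, microglia, endothelium, choroid plexus and red blood cells were detected in every library, with no marker of these lists at 0. Fewer cells of a type and less RNA per cell cannot be told apart in such samples. Capn15 was measured at 25.4 ± 3.07 CPM (counts scaled to a common library size; SD, n = 7) in WT and 14.5 ± 2.67 CPM (SD, n = 7) in KO (exact permutation p = 0.00117, two-sided). In the edgeR fit used for the 10 genes its log2 fold change was -0.81 (SE 0.118, FDR 0.0747), so the targeted gene itself missed an FDR of 0.05. The litter F libraries went against their labels: the library labelled WT replicate 7 had 18.7 CPM and the library labelled KO replicate 7 had 20.2 CPM, whereas the other WT libraries had at least 25.0 CPM and the other KO libraries at most 14.5 CPM. Results are therefore also given without litter F. Over all genes, 1 gene passed a false discovery rate (FDR) of 0.05 for genotype, Ptgds, prostaglandin D synthase (log2 fold change -0.38, SE 0.0488, FDR 0.0398). The study itself, with edgeR and with sex and litter as variables, reported Capn15 and further genes under that FDR. The reason for the difference was not tested.

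The 4 Dlx genes lie as convergent pairs of neighbours. In GRCm38, Dlx1 (ENSMUSG00000041911) spans chr2:71528113-71533981 on the plus strand and Dlx2 (ENSMUSG00000023391) chr2:71543408-71546754 on the minus strand, 9426 bases apart. Dlx6 (ENSMUSG00000029754) spans chr6:6863334-6868568 on the plus strand and Dlx5 (ENSMUSG00000029755) chr6:6877805-6882085 on the minus strand, 9236 bases apart. An antisense RNA runs over each plus-strand gene. Dlx1as shares 335 exonic bases with Dlx1, which is 6.21% of the Dlx1 exons, while Dlx6os1 shares no exonic base with Dlx6. Dlx6os2, also on the opposite strand, shares 104 exonic bases with Dlx6 (4.38% of its exons). Gm27953, on the same strand as Lhx6, shares 104 with Lhx6 (2.16%). Neither of them was in the count table. The strand setting of the counting is not stated, so reads in bases shared between opposite strands cannot be assigned to 1 of the 2 genes. Of the transcripts listed inside Erbb4, Gm37769 (0.463 CPM) and Gm16076 (0.32 CPM) were in the table and share no exonic base with it. Of the 50-base words in the Dlx6 transcripts, 6.09% also occurred in transcripts of other genes. The value was 5.19% for Dlx1, all of it shared with Dlx1as, 1.59% for Lhx6 and 1.38% for Nkx2-1, and 0% for Dlx2, Dlx5, Sst, Npy, Calb2 and Erbb4.

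RefSeq promoter windows (GRCm38.p6) matched 7 of the 10 genes. 3 stretches are shown. Dlx2 stands for the Dlx genes whose levels varied together between libraries. Npy and Sst are the 2 peptide genes, of which only Sst passed the litter test given further on. The Dlx2 and Npy stretches are the 250 bases before the start, Dlx2 on the minus strand at chr2:71546755-71547004 and Npy on the plus strand at chr6:49822460-49822709. The Sst stretch is 30 bases on the minus strand at chr16:23890874-23890903, which GENCODE places inside the first Sst exon. Capitals mark the motifs searched, on both strands: the cyclic AMP response element TGACGTCA, the E-box CACGTG, the CCAAT box (CCAAT) and the GC box CCGCCC.
Dlx2: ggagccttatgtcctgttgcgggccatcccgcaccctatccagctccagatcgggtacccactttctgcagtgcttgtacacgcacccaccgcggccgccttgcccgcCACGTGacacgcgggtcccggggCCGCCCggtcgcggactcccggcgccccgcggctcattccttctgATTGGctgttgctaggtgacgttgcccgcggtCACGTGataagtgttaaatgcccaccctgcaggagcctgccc
Npy: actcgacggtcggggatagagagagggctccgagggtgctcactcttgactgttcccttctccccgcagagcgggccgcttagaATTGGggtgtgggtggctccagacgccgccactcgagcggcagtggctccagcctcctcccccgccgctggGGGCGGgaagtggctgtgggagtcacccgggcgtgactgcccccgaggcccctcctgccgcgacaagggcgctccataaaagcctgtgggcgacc
Sst: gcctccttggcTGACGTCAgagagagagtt
The Dlx2 stretch held 2 copies of CACGTG, a motif found in 6.02% of the 32851 RefSeq windows of 250 bases. The cyclic AMP response element of Sst was found in 1.55% of the windows and in none of the other windows of the 10 genes. CCAAT was found in 33.8% and CCGCCC in 32.7% of windows. The TATA box TATAAA (12.4% of windows) and the homeodomain core TAATTA (4.84%) were also searched and were in none of the windows of these genes. These are matches of letters and not tested sites.

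Per exon length, Sst, Npy and Calb2 stood far above the transcription factors, while Erbb4 did not. The exon length joins all annotated transcripts of a gene, 1 for Sst and Npy, 6 for Dlx1 and 9 for Lhx6. In WT brains Sst was at 99.7 ± 8.28, Npy at 88.8 ± 4.89 and Calb2 at 48.2 ± 4.67 CPM per kilobase of exon (SD, n = 7), at the 98.2, 97.9 and 95.3 percentiles of 17915 genes. Erbb4 was at 10.5 ± 1.11, Dlx1 at 9.01 ± 1.91 and Lhx6 at 7.81 ± 1.01 on the same scale. Dlx6 followed with 3.31 ± 0.187, Dlx5 with 2.27 ± 0.484, Dlx2 with 1.97 ± 0.455 and Nkx2-1 with 0.485 ± 0.104, the last at the 15.5 percentile. Neighbours in this order separated in every library between Npy and Calb2, Calb2 and Erbb4, Lhx6 and Dlx6, and Dlx2 and Nkx2-1. The WT ranges of Sst and Npy overlapped, as did those of each next pair in the order from Erbb4 to Lhx6 and from Dlx6 to Dlx2. Within a library, Sst exceeded Npy in 13 of 14, Erbb4 exceeded Dlx1 in 10 of 14 and Dlx6 exceeded Dlx5 in 14 of 14. The order was the same in the KO means.

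**Figure D1:**
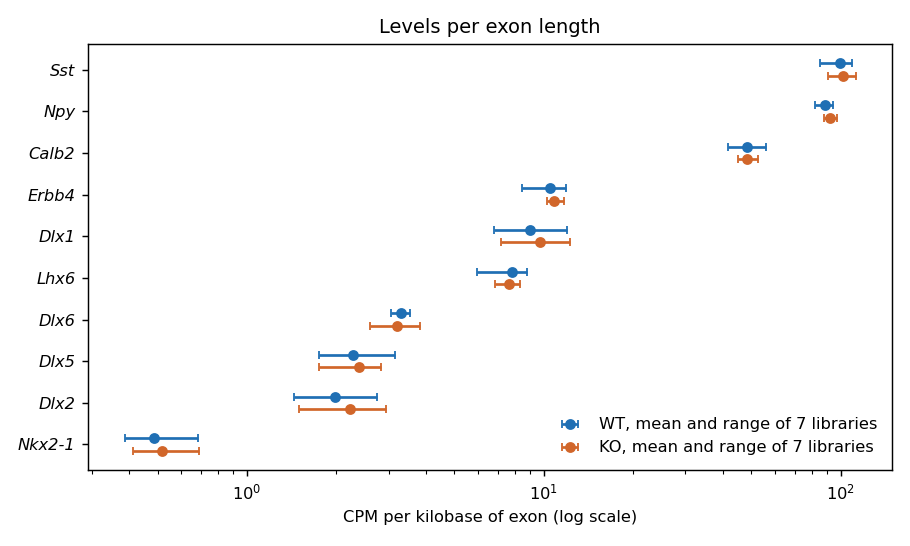
Levels of the 10 genes in CPM per kilobase of exon (horizontal axis, log scale), with points for the mean and bars for the lowest and highest of 7 WT and 7 KO libraries. Sst and Npy lie highest, Nkx2-1 lowest, and the WT and KO bars of every gene overlap.

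Genotype was compared in the 10 genes with edgeR's quasi-likelihood test on all 17927 genes, with litter and sex in the model. None of the 10 passed an FDR of 0.05, beside 0.00558% of all genes. At an unadjusted p under 0.05 there were 2, Dlx1 and Dlx2, beside 5.14% of all genes. Both were higher in KO, as were 2.88% of all genes at that p, with 2.26% lower. Of the log2 fold changes, 8 were above 0 and 2 below, with a median of 0.061 beside 0.0015 for all genes. No gene of the 10 had WT and KO libraries that did not overlap (0.00558% of all genes), and none had an exact permutation p under 0.05 (1.73% of all genes). The permutation regroups all 14 libraries without regard to litter or sex, unlike the edgeR fit, so the spread between litters counts as error in it.

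Dlx1 and Dlx2, homeodomain factors needed for the migration and maturation of cells from the eminences, had the smallest genotype p-values. Dlx1 ranged from 36.7 to 64.8 CPM in WT, with a median of 49.3, and from 38.9 to 66.1 CPM in KO, with a median of 51.6. The highest libraries of both genotypes were of litter B and the lowest of litter A, and the groups overlapped over nearly their whole range. The log2 fold change was 0.11 (SE 0.0494, 95% interval 0.0072 to 0.22, edgeR FDR 0.954), and Dlx1 was higher in KO in 5 of 7 pairs of the same replicate number. The pairing is arbitrary within litter B, which has 2 brains of each genotype, and 6 of the 7 pairs were of opposite sex. Dlx2 ranged from 4.11 to 7.84 CPM in WT, with a median of 5.47, and from 4.29 to 8.42 CPM in KO, with a median of 6.16. Its log2 fold change was 0.20 (SE 0.0784, 95% interval 0.033 to 0.37, edgeR FDR 0.877), also with KO higher in 5 of 7 pairs. Without litter F neither gene had an unadjusted p under 0.05, with log2 fold changes of 0.094 (SE 0.0528) for Dlx1 and 0.16 (SE 0.0821) for Dlx2. Leaving out 1 library moved the Dlx1 value to between 0.051, without WT or KO replicate 5, and 0.20, without WT or KO replicate 4, and the Dlx2 value to between 0.16 and 0.29, with no FDR under 0.05. The antisense RNA Dlx1as was at 9.90 ± 1.21 CPM in WT and 11.03 ± 1.02 CPM in KO (SD, n = 7; log2 fold change 0.17, SE 0.0573, FDR 0.765).

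Dlx5 and Dlx6, the second pair, act in the same eminence cells after the first. Dlx5 ranged from 3.97 to 7.14 CPM in WT, with a median of 5.29, and from 3.94 to 6.42 CPM in KO, with a median of 5.33. Dlx6 ranged from 7.26 to 8.43 CPM in WT, with a median of 7.91, and from 6.15 to 9.10 CPM in KO, with a median of 7.45. The groups overlapped for both genes, and the log2 fold changes lay on opposite sides of 0, at 0.11 for Dlx5 (SE 0.0764, FDR 1) and -0.068 for Dlx6 (SE 0.0627, FDR 1). Dlx6os1, an RNA also called Evf2, had a log2 fold change of 0.072 (SE 0.0447).

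Nkx2-1 (chr12:56531958-56536908) was the scarcest of the 10, with 45 to 103 counts per library. It ranged from 1.10 to 1.95 CPM in WT, with a median of 1.29, and from 1.18 to 1.95 CPM in KO, with a median of 1.34. KO was higher in 6 of 7 pairs, but the log2 fold change of 0.14 had a 95% interval from -0.11 to 0.39. Lhx6 (chr2:36081953-36105408), a LIM homeodomain factor, ranged from 28.7 to 42.3 CPM in WT, with a median of 37.1, and from 32.9 to 39.8 CPM in KO, with a median of 36.1. The lowest WT value was the litter F library, and the KO values lay inside the WT range. The log2 fold change of Lhx6 was 0.016 (95% interval -0.073 to 0.11).

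Sst (chr16:23889573-23890958) encodes somatostatin, a peptide that damps hormone release and neuronal firing. It ranged from 61.4 to 78.5 CPM in WT, with a median of 73.5, and from 65.1 to 81.1 CPM in KO, with a median of 70.6. Npy (chr6:49822710-49829507), neuropeptide Y, ranged from 46.5 to 53.4 CPM in WT, with a median of 50.2, and from 49.6 to 54.8 CPM in KO, with a median of 52.8. Values of both peptides interleaved between genotypes. The 95% interval of the log2 fold change was -0.049 to 0.094 for Sst and -0.036 to 0.12 for Npy.

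Calb2 (chr8:110137502-110168210), or calretinin, ranged from 72.6 to 97.4 CPM in WT, with a median of 83.1, and from 78.3 to 91.9 CPM in KO, with a median of 83.8. Erbb4 (chr1:68032186-69108059) ranged from 104 to 146 CPM in WT, with a median of 131, and from 127 to 144 CPM in KO, with a median of 133. The WT value of 104 was the litter F library, and without it the lowest WT value was 123 CPM. The log2 fold change was -0.0023 for Calb2 (95% interval -0.091 to 0.087) and 0.078 for Erbb4 (SE 0.0385, FDR 0.98). Without litter F the value for Erbb4 was 0.039 (SE 0.0336).

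**Figure D2:**
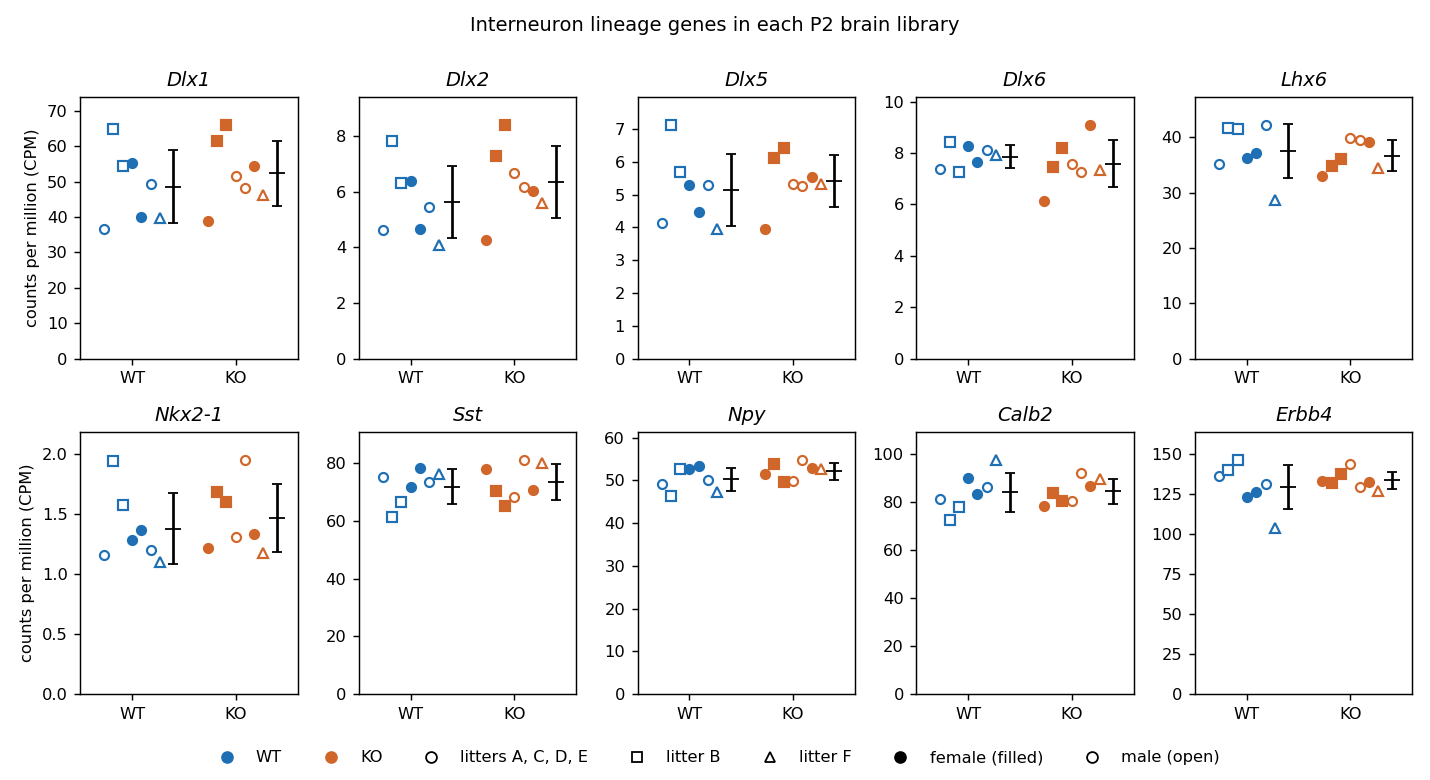
CPM of each gene (vertical axis, from 0) in every library, with WT in blue and KO in orange, squares for litter B, triangles for litter F, filled symbols for females and a black bar for the mean ± SD of 7 libraries. The WT and KO values of all 10 genes overlap, and the squares lie high for Dlx1, Dlx2 and Dlx5.

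The 95% intervals show how precisely whole-brain differences were estimated, with the labels of all 14 libraries taken as given, litter F included. They set no limit on a change within interneurons alone. For Lhx6, Sst, Npy, Calb2 and Erbb4 the 95% limits of the log2 genotype difference lay between -0.091 and 0.16. For Dlx1, Dlx2, Dlx5, Dlx6 and Nkx2-1 they lay between -0.20 and 0.39. These intervals are not adjusted for the number of genes.

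The sexes were compared in the same fit as female minus male. None of the 10 passed an FDR of 0.05 (0.0669% of all genes did), and 2 had an unadjusted p under 0.05, Lhx6 and Erbb4, beside 5.04% of all genes. Both were lower in females, as were 2.63% of all genes at that p. Lhx6 ranged from 32.9 to 39.1 CPM in 6 female brains, with a median of 36.2, and from 28.7 to 42.3 CPM in 8 male brains, with a median of 39.7. The female values lay within the male range, whose lowest value was again the library labelled WT replicate 7. The log2 difference was -0.15 (SE 0.0447, FDR 0.877). Erbb4 ranged from 123 to 137 CPM in females, with a median of 132, and from 104 to 146 CPM in males, with a median of 134, with a log2 difference of -0.10 (SE 0.0416, FDR 0.927) that was -0.16 without WT or KO replicate 5. Without litter B neither gene had an unadjusted p under 0.05, with log2 differences of -0.11 for Lhx6 and -0.067 for Erbb4. Of 6 hindbrain and spinal cord markers 5 had an unadjusted p under 0.05 for sex, with a median log2 difference of 0.47 over the list, and their part in these values was not tested.

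**Figure D3:**
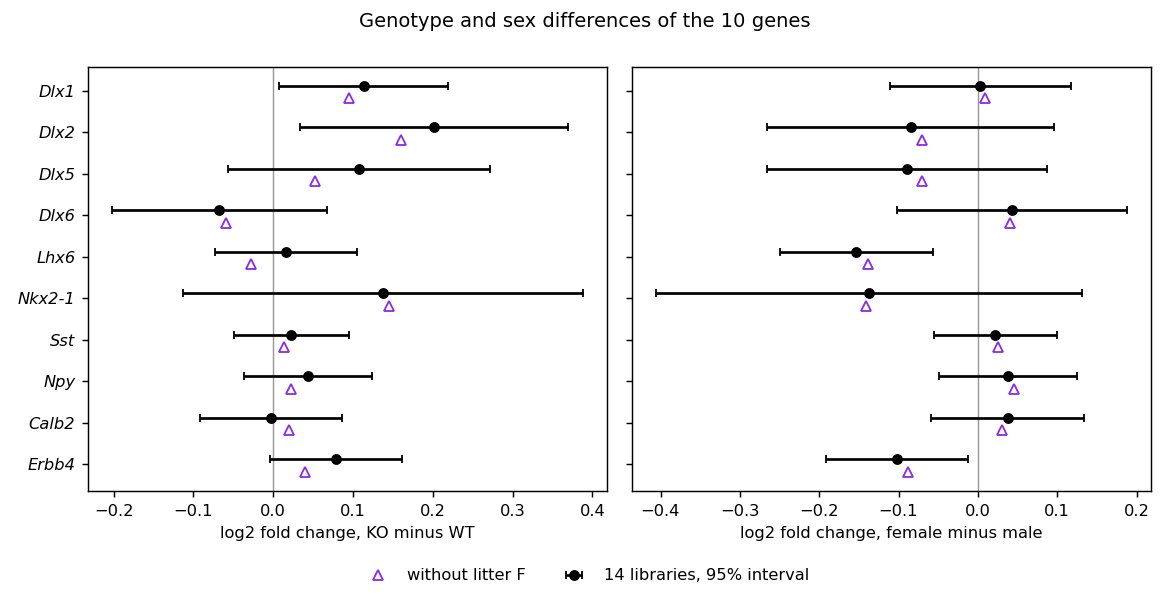
Log2 fold changes of the 10 genes (horizontal axes) for KO minus WT (left) and female minus male (right), with black points and 95% intervals from 14 libraries and triangles for the value without litter F. On the left the intervals of Dlx1 and Dlx2 lie above 0, and on the right those of Lhx6 and Erbb4 lie below 0, none of them with an FDR under 0.05.

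The genotype difference was also compared between sexes by adding a genotype by sex term. None of the 10 passed an FDR of 0.05 (0.00558% of all genes), and Lhx6 and Erbb4 were the 2 with an unadjusted p under 0.05 (6.85% of all genes). Their terms were -0.58 for Lhx6 (SE 0.18, FDR 0.529) and -0.50 for Erbb4 (SE 0.17, FDR 0.565). The term can be estimated only with litter F, the litter whose Capn15 values went against the labels, so it has no value without it.

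Litter was the factor under which most of the 10 genes differed. In a joint test of the litter coefficients, 6 of the 10 passed an FDR of 0.05, beside 29.6% of all genes. They were Dlx1 (FDR 0.00016), Dlx2 (FDR 0.00267), Lhx6 (FDR 0.00484), Sst (FDR 0.00516), Dlx5 (FDR 0.00923) and Erbb4 (FDR 0.0259). Calb2 (FDR 0.0579), Nkx2-1 (FDR 0.0637), Dlx6 (FDR 0.216) and Npy (FDR 0.716) did not pass. With edgeR's likelihood ratio test 8 passed, beside 37.4% of all genes, with Calb2 (FDR 0.0155) and Nkx2-1 (FDR 0.0122) added. Without litter F 5 of the 10 passed, beside 27.5% of all genes, and Erbb4 did not (FDR 0.339). Dlx1, Dlx2, Lhx6 and Sst passed in each of 14 fits without 1 library. Dlx5 did not pass without KO replicate 1 (FDR 0.0518), and Erbb4 did not pass in 6 of the 14 fits, those without WT replicate 1, 2, 3 or 7 or KO replicate 1 or 3, with an FDR of up to 0.198.

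Without the 4 libraries of litter B, a fit with 10 in place of 14 libraries, 1 of the 10 genes passed, Dlx1 (FDR 0.0466), beside 1.09% of all genes. The ratio of the highest to the lowest litter mean was 1.42 for Dlx1 without litter B (1.63 with it), 1.46 for Dlx2 (1.67), 1.34 for Dlx5 (1.57), 1.14 for Sst (1.21) and 1.16 for Erbb4 (1.2). For Lhx6, whose highest and lowest litters were E and F, it was 1.29 in both cases, with an FDR of 0.0785 without litter B.

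Dlx1, Dlx2 and Dlx5 were highest in litter B and lowest in litter A. Dlx1 lay between 54.6 and 66.1 CPM in the 4 libraries of litter B and between 36.7 and 55.3 CPM in the 10 others. Its litter means ran from 37.8 CPM in litter A to 61.7 CPM in litter B, a ratio of 1.63, while libraries of the same litter differed by at most 1.21 times. Dlx2 lay between 6.33 and 8.42 CPM in litter B and between 4.11 and 6.70 CPM elsewhere. Dlx5 lay between 5.71 and 7.14 CPM in litter B and between 3.94 and 5.52 CPM elsewhere, and was the 1 gene of the 10 whose litter B libraries did not overlap the others, which held for 17.2% of all genes. Dlx6, the neighbour of Dlx5, lay between 7.26 and 8.43 CPM in litter B, inside the range of 6.15 to 9.10 CPM of the others.

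Nkx2-1 was at 1.58 to 1.95 CPM in litter B and 1.10 to 1.95 CPM elsewhere. Sst went the other way, with 61.4 to 70.2 CPM in litter B and 68.4 to 81.1 CPM elsewhere, so that 1 of the 10 other libraries fell below the highest of litter B. Npy, the second peptide, had 46.5 to 53.8 CPM in litter B and 47.3 to 54.8 CPM in the others, and its litter means differed by a ratio of 1.08. Lhx6 was lowest in litter F, with a litter mean of 31.5 CPM, and highest in litter E, with 40.7 CPM. Erbb4 was also lowest in litter F, with a mean of 115.6 CPM against 127.7 to 138.9 CPM in the other litters. Calb2 was highest there, at 93.5 CPM against 78.7 to 87.5 CPM.

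Summed levels of 13 marker lists of other cells and regions were compared between litter B and the other litters. The summed level of 5 oligodendrocyte lineage markers was 292 to 323 CPM in litter B and 342 to 467 CPM in the others, and that of 5 astrocyte and radial glia markers 1257 to 1468 CPM against 1494 to 1780 CPM. The 6 striatal projection neuron markers summed to 111 to 123 CPM in litter B and 127 to 155 CPM in the others. The 5 red blood cell markers summed to 197 to 322 CPM against 31.0 to 199.5 CPM, ranges that overlapped at their ends. The 6 hindbrain and spinal cord markers summed to 33.26 to 35.6 CPM against 16.5 to 33.25 CPM. Summed levels of 5 microglia markers were 62.0 to 73.7 CPM against 77.9 to 91.1 CPM, and of 5 cerebellar markers 111 to 127 CPM against 149.7 to 182.7 CPM. The lists of neurons (4416 to 4649 CPM against 4337 to 4597 CPM), pallial projection neurons (415 to 439 CPM against 386 to 457 CPM), hypothalamus (16.5 to 18.2 CPM against 12.8 to 20.2 CPM), choroid plexus (740.5 to 913 CPM against 600.1 to 971 CPM), thalamus (159 to 171 CPM against 135 to 164 CPM) and endothelium (179 to 205 CPM against 190 to 233 CPM) overlapped the range of the other litters. Sums can hide shifts of single genes. Of the neuron markers 4 of 5 passed the litter test, and of the pallial projection neuron markers 4 of 6, beside 29.6% of all genes. In both lists some genes were higher and some lower in litter B. The part of the 13 lists in the litter differences of the 10 genes was not tested.

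**Figure D4:**
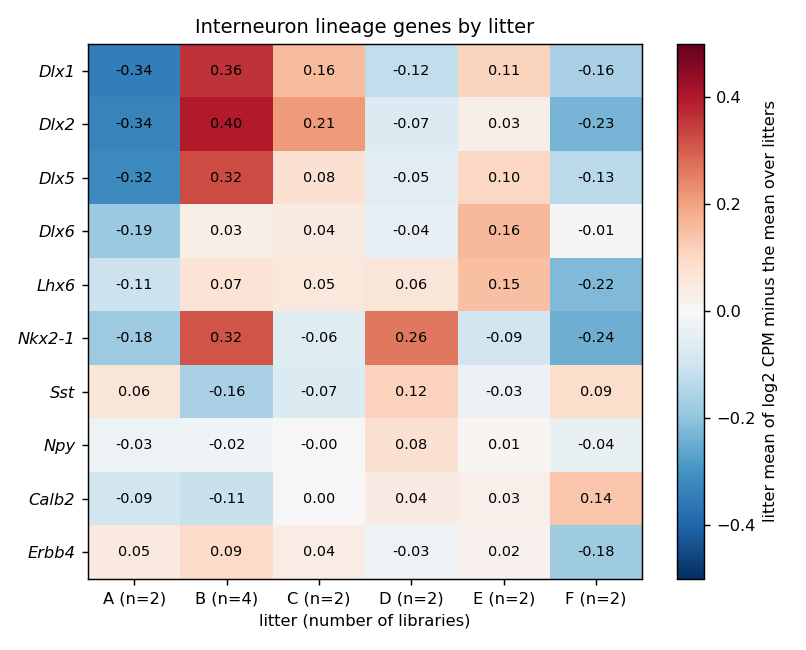
Litter means of log2 CPM minus the mean over the 6 litters for each gene (color and printed value), with litters as columns and the number of libraries in brackets. Litter B is highest for Dlx1, Dlx2, Dlx5, Nkx2-1 and Erbb4 and lowest for Sst and Calb2. Litter A is lowest for the 4 Dlx genes, and Npy is nearly flat.

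Across the 14 libraries, Dlx1, Dlx2 and Dlx5 varied together. Correlations of log2 CPM were computed for all 45 pairs of the 10 genes, with 100000 permutations and adjustment over the pairs, and libraries of the same litter are not independent. Dlx1 and Dlx2 had Pearson's r = 0.957 (permutation p = 1e-05, the smallest possible; adjusted p = 0.00015) and Spearman's rho = 0.93 (permutation p = 2e-05, adjusted p = 0.0009). Without the 2 libraries farthest from the Dlx1 median r was 0.956, without litter B 0.905, and after subtraction of litter means 0.884. Dlx2 and Dlx5, which are on different chromosomes, had r = 0.953 (rho = 0.881; permutation p = 1e-05 and 0.00015), and 0.894 after subtraction of litter means. Nkx2-1 also passed for r with Dlx1 (r = 0.661, adjusted permutation p = 0.0461), Dlx2 (0.713, 0.0223) and Dlx5 (0.72, 0.0219). For rho the adjusted permutation p was 0.0526, 0.0256 and 0.0837. These r were 0.326, 0.479 and 0.41 without litter B, and 0.723, 0.628 and 0.684 after subtraction of litter means.

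The neighbours Dlx5 and Dlx6 did not pass, with r = 0.50 and rho = 0.42 (permutation p = 0.0682 and 0.137, adjusted p = 0.153 and 0.257). Without the 2 libraries farthest from the Dlx5 median r was 0.149. After subtraction of litter means r was 0.156 and rho 0.477. Within WT libraries r was 0.468, within KO libraries 0.738 and without litter B 0.546. Over all pairs, 12 of 45 had an adjusted p under 0.05 for r, 8 of them positive and 4 negative. Whether this share exceeds that among pairs of other genes was not tested. Litter differences were common in these data, with 29.6% of all genes passing the litter test. Genes that differ between litters can correlate across libraries for that reason alone, so the count is not a measure of shared regulation.

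Sst was negatively correlated with Dlx1 across libraries, with r = -0.785 and rho = -0.789 (permutation p = 0.00117 and 0.00137, adjusted p = 0.0105 and 0.0103). Within WT libraries r was -0.88 and within KO libraries -0.798. Without the 2 libraries farthest from the Dlx1 median it was -0.791, and without litter B -0.549. After subtraction of litter means r was 0.05. Calb2 and Erbb4 had r = -0.812 and rho = -0.859 (permutation p = 0.00031 and 0.0002, adjusted p = 0.00349 and 0.00225), with r = -0.75 without the 2 farthest libraries and -0.639 after subtraction of litter means.

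**Figure D5:**
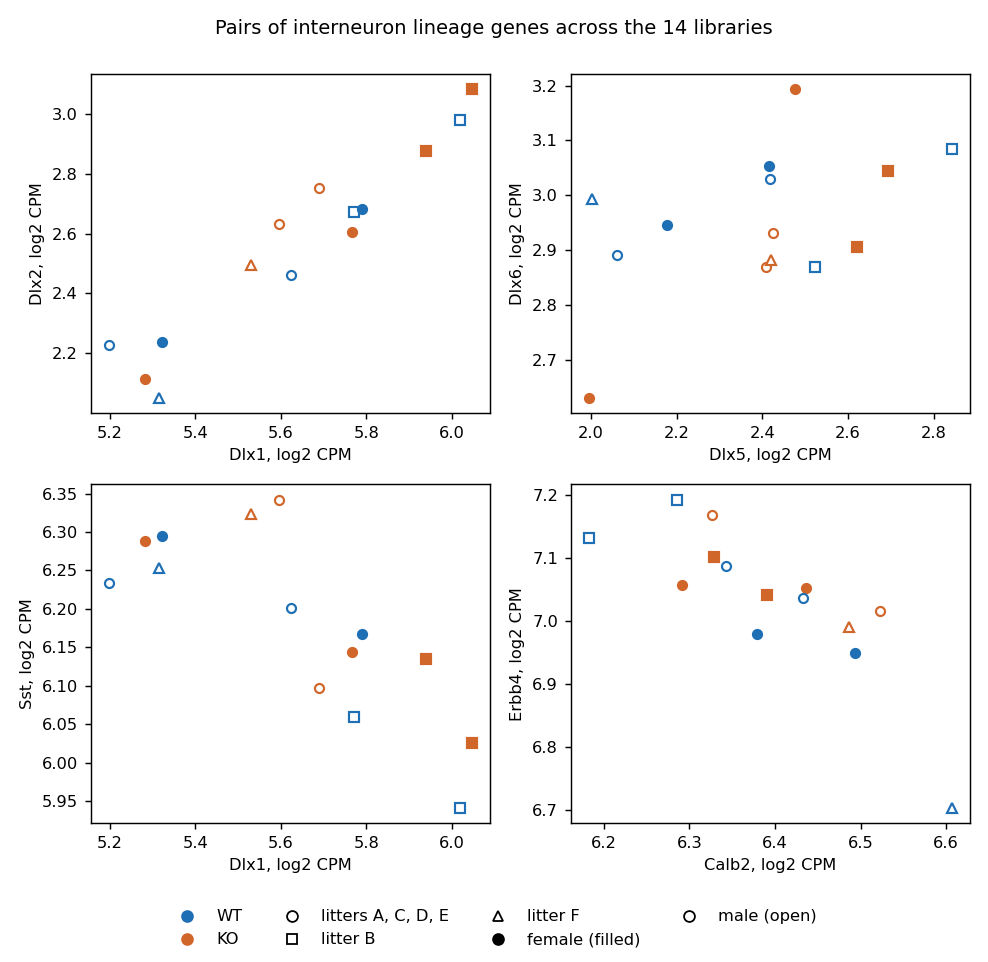
Log2 CPM of 4 pairs of genes (both axes) in the 14 libraries, with colors for genotype, squares for litter B, triangles for litter F and filled symbols for females. Dlx1 and Dlx2 follow a line, Dlx5 and Dlx6 scatter, Dlx1 and Sst run in opposite directions with litter B at one end, and Calb2 and Erbb4 run in opposite directions with the library labelled WT replicate 7 at one end.

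Among the 10 genes most like the mean log2 CPM of the 4 Dlx genes were Ldb1, Zfp358, Plekho1, Csnk1d, Fgfbp3, Tesk1, Dusp4, Meis3 and Sox1ot, with r from 0.954 to 0.936 over 14 libraries. Of 15217 genes compared, 86 had r of at least 0.9. Ldb1 encodes an adaptor of LIM homeodomain proteins. Without litter B, r was 0.921 for Ldb1.

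Other genes of the lineage were read from the same fit. Some listed genes are also among the oligodendrocyte or cerebellar markers above, so the counts are not of interneurons alone. For these lists and those of the next paragraphs, the shares over all genes are 5.14% at an unadjusted genotype p under 0.05 and 29.6% for litter. No gene of the lists named here passed an FDR of 0.05 for genotype or for sex. Among 13 ventral progenitor factors none had an unadjusted genotype p under 0.05 and 6 passed for litter, beside 29.6% of all genes. Their smallest p-values were those of Gsx2, a homeodomain factor of lateral eminence progenitors (log2 fold change 0.33, SE 0.188), and the hedgehog receptor Ptch1 (-0.055, SE 0.0327). Of 9 factors of the medial eminence lineage 1 had a p under 0.05, the chromatin organizer Satb1 (log2 fold change 0.063, SE 0.0278), followed by Zeb2 (0.05, SE 0.0279), and 6 passed for litter. Of 11 factors of the caudal and lateral eminences, 9 passed for litter and 1 had a genotype p under 0.05, Ebf1, lower in KO (log2 fold change -0.097, SE 0.0367), followed by Etv1 (0.083, SE 0.049).

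Of 4 genes of GABA synthesis and transport, none had a genotype p under 0.05, and 2 passed for litter. The synthesis enzyme Gad2 had a log2 fold change of -0.019 (SE 0.0322). Among 13 genes of other interneuron subtypes, 9 passed for litter, and at an unadjusted p under 0.05 for genotype 1 had a log2 fold change above 0 and 3 below. The smallest p-values were those of Reln, the secreted protein reelin (log2 fold change 0.12, SE 0.0326), and Lamp5 (-0.19, SE 0.0537). Reln was at 433 ± 47.6 CPM in WT and 460.4 ± 32.3 CPM in KO (SD, n = 7).

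The receptors of Sst and Npy and the relatives and ligands of Erbb4 likewise held no gene that passed for genotype. Of 8 somatostatin and neuropeptide Y receptors measured none had a genotype p under 0.05, with Sstr4 (log2 fold change 0.14, SE 0.0676) and Sstr2 (0.054, SE 0.0404) the smallest, and 6 passed for litter. Of 7 ErbB ligands and receptors measured none had a genotype p under 0.05, with Nrg3, an ErbB4 ligand (log2 fold change 0.049, SE 0.0387), and Erbb3 (-0.093, SE 0.0869) the smallest, and 3 passed for litter. Of 11 interneuron migration cues none had a genotype p under 0.05, with the guidance cues Slit1 (log2 fold change 0.10, SE 0.051) and Sema3f (0.068, SE 0.0377) the smallest, and 8 passed for litter. The choroid plexus markers are made by an epithelium outside this lineage. At an unadjusted genotype p under 0.05, 5 of 5 were lower in KO, beside 2.26% of all genes. None of them passed an FDR of 0.05. Their summed levels were 733 to 971 CPM in WT and 600 to 844 CPM in KO, mostly from Ttr (mean 846 CPM in WT).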

How the data were processed

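Total RNA of 14 whole P2 brains was ribodepleted and sequenced. The deposited values are raw counts per gene, 1 column per brain. According to the study's methods, the authors trimmed reads with Trimmomatic, aligned them to GRCm38 with STAR and counted them with HTSeq-count, whereas the submitters' processing notes name featureCounts and Subread. These notes and the methods also differ on the library kit. The annotation release, strand setting and gene filter are not given in the sources used here. The deposited table held no gene with fewer than 145 counts in all.

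Counts were tested with edgeR 4.0.16 (quasi-likelihood F test, TMM factors, no further filter) in R 4.3.3, with litter, sex and genotype as terms, and Benjamini-Hochberg adjustment (FDR) over all 17927 genes. The step was tested on simulated data with genotype changes larger than those estimated for the 10 genes. CPM used TMM factors, and log2 CPM a prior count of 2. Exact permutation tests used all 3432 regroupings of 7 against 7 libraries (smallest p 0.000583). Positions and exon lengths came from GENCODE M21 (17915 genes matched) and promoter windows from RefSeq. Brains with the same replicate number are of the same litter. Their deviations from the group means correlated by 0.123 on average (-0.467 to 0.443), and no 2 libraries of a group were duplicates. P-values set differences against the spread between these brains. In the edgeR fit this is the spread left after litter, sex and genotype. The intervals of the log2 fold changes, built from the edgeR standard errors, rest on the same spread. The exact permutation tests include the spread between litters. The limit of 3 counts used for detection covers counting error only. The genes, lists and tests were chosen with earlier results of these data known. Named besides the 10 genes are Capn15, the antisense RNAs, genes over the 10, the gene passing for genotype, from each list the 2 genes of smallest genotype p, and the 10 genes most like the Dlx mean among genes of at least 1 CPM. Some genes that these rules name are not reported here. Alternatives were the likelihood ratio test, DESeq2 1.42.0, limma-voom (limma 3.58.1), other scalings, a filter, other covariates and leaving out libraries.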

Additional observations from a re-analysis of the deposited data

Results flagged for a closer look

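Dixon's test of the lowest and highest library was applied to the 10 genes, Capn15 and the 2 antisense RNAs in each genotype, 26 groups of 7 libraries, of which chance flags about 1 in 20. In 4 groups the gap to the next library exceeded the 95% critical value. Dlx5 was lowest in KO replicate 1, at 3.94 CPM against 5.27 CPM for the next library (gap 0.594 of the range), and Dlx6os1 in the same library, at 31.8 CPM against 38.4 CPM (gap 0.633). Capn15 was lowest among WT in the library labelled WT replicate 7, at 18.7 CPM against 25.0 CPM (gap 0.761), and highest among KO in the library labelled KO replicate 7, at 20.2 CPM against 14.5 CPM (gap 0.647). The genotype by sex term of Capn15 was -2.16 on the log2 scale (edgeR quasi-likelihood FDR 0.0475), a term that rests on the same litter F libraries.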

How the results depend on the processing

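None of the 10 genes passed an FDR of 0.05 for genotype, sex or the genotype by sex term under any alternative run. The number of genes passing for genotype over the whole table, 1 as reported, was 34 with the likelihood ratio test, 22 with DESeq2, 2 without sex in the model, 7 without litter F, 7 with the 13 libraries of the study's list of expression values, 0 with library totals, 0 with a replicate block (brains of the same number) used instead of litter, and 0 without litter B, an alternative chosen after seeing the data. It was 0 to 7 without 1 library. For sex, 12 genes became 36 with the likelihood ratio test and 11 to 16 without 1 library. For litter, 5301 genes became 6711 with the likelihood ratio test, 196 without litter B and 3626 to 5770 without 1 library. Of the 10 genes 6 became 8, 1 and 4 to 7 under these settings. Calb2 also passed in 6 of the 14 fits without 1 library. The interaction count, 1, became 48 with the likelihood ratio test, 0 with library totals, 3 without litter B and 0 to 4 without 1 library, and could not be fitted without litter F or without either of its libraries. The filter removed no gene. The correlation of Dlx5 with Dlx6 was 0.609 without litter F (permutation p = 0.0346), 0.156 after subtraction of litter means and 0.292 to 0.602 without 1 library, the lowest without KO replicate 1. The correlation of Dlx1 with Dlx2 was 0.948 to 0.965 without 1 library. Directions turned only for values that had passed no test. The genotype value of Lhx6, 0.016, was -0.032 with genotype alone, -0.027 without sex, -0.028 without litter F and with the 13 libraries, and -0.031 to 0.047 without 1 library. That of Calb2, -0.0023, was 0.0050 with genotype alone, 0.0084 without sex, 0.020 without litter F and with the 13 libraries, and -0.073 to 0.045 without 1 library. The sex value of Calb2 was -0.0054 without litter B and -0.016 to 0.12 without 1 library, that of Dlx1 -0.089 to 0.073 and that of Sst -0.0079 to 0.042. The difference of mean log2 CPM was 0.055 for Lhx6 and -0.038 for Calb2 without litter B. Without 1 library it was -0.089 to 0.0040 for Lhx6, -0.0081 to 0.057 for Sst, -0.026 to 0.045 for Calb2 and -0.0019 to 0.080 for Erbb4. The causes of these shifts were not tested. Nkx2-1, with 45 counts at least, had the widest interval of the 10 genes.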
